A study of Capra hircus with 3 samples.

Results

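KRT35, KRT85 and KRT84 are keratins of the hair shaft, and their levels were followed in single cells of fetal goat skin. These 3 genes were chosen by name, as 3 rows of a table of 16739 genes. The animals were fetuses of the Northern Shaanxi White Cashmere goat (Capra hircus), with no genetic or drug treatment given in the labels, and the tissue was skin of the back. The stages were E60, E90 and E120, that is, days 60, 90 and 120 of gestation, with 1 library of 3′ droplet-based single-cell RNA sequencing each. For E60 and E90, whole skin was treated with collagenase IV and broken up with a pipette tip, whereas for E120 hair follicles were picked out of collagenase-treated skin with forceps and taken apart with TypLE Express. Suspensions of at least 2 fetuses per stage were made separately and pooled before barcoding, and the fetus of a cell is not given. In comparisons with E120, stage and preparation cannot be told apart, and no stage had a replicate, so no test between stages was made.

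Keratin filaments are built of pairs, each of an acidic type I chain and a basic type II chain. KRT35 is a type I hair keratin, and KRT85 and KRT84 are type II hair keratins. In known follicles KRT35 and KRT85 are among the earliest hair keratins, found in the precortex and the cuticle of the shaft among other places, and KRT85 mutations cause a hair and nail disorder in humans. KRT84 is a hair keratin also known from the filiform papillae of the tongue. The homeobox protein HOXC13 is a known regulator of hair keratin genes, and keratin-associated proteins embed the filaments later in the cortex.

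The libraries held 6849 cells and 65049552 unique molecular identifiers (UMIs) at E60, 6931 cells and 30277663 UMIs at E90, and 6896 cells and 93403291 UMIs at E120. Median UMIs per cell were 8579, 3714 and 13064. Between 19 and 23 cell barcodes of each library also occurred in another library. Levels are given as UMI counts scaled to a total of 1000000 (CPM) with exact Poisson intervals at 95%, and shares of cells with exact binomial (Clopper-Pearson) intervals at 95%; all cover counting error only. UMIs of a 3′ library are not divided by gene length, so levels of different keratins compare molecules counted. How reads shared between keratin genes were counted is not stated, and levels of these near relatives are uncertain to that extent.

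KRT35 and KRT85 were counted at E90 and E120, and KRT84 at E120. At E60 none of these genes had a UMI, a floor of 3 counts being 0.0461 CPM, and 0 of 6849 cells allows a share of up to 0.0538%. KRT35 had 131 UMIs at E90, a level of 4.33 CPM (3.62 to 5.13), and 546093 UMIs at E120, a level of 5847 CPM (5831 to 5862). KRT85 had 596 UMIs at E90, a level of 19.7 CPM (18.1 to 21.3), and 634768 UMIs at E120, a level of 6796 CPM (6779 to 6813). In whole libraries KRT85 was thus above KRT35 at both stages, by a wider margin at E90. The KRT35 level at E90 was not separable from background, as given below. In single E120 cells with many UMIs of the pair the order was mostly the reverse: KRT35 made up a median of 60.5% of the pair in 1994 such cells, also described below. KRT84 had 0 UMIs at E60 and E90, where the floor was 0.0991 CPM, and 23402 UMIs at E120, a level of 251 CPM (247 to 254). Genes seen in only 1 or 2 cells of a library were few (39 and 108 at E60, against 1734 in 0 cells), so a listed 0 may hide as many as 2 cells. A whole-library level does not separate the number of cells that make a gene from the UMIs of each such cell.

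**Figure D1:**
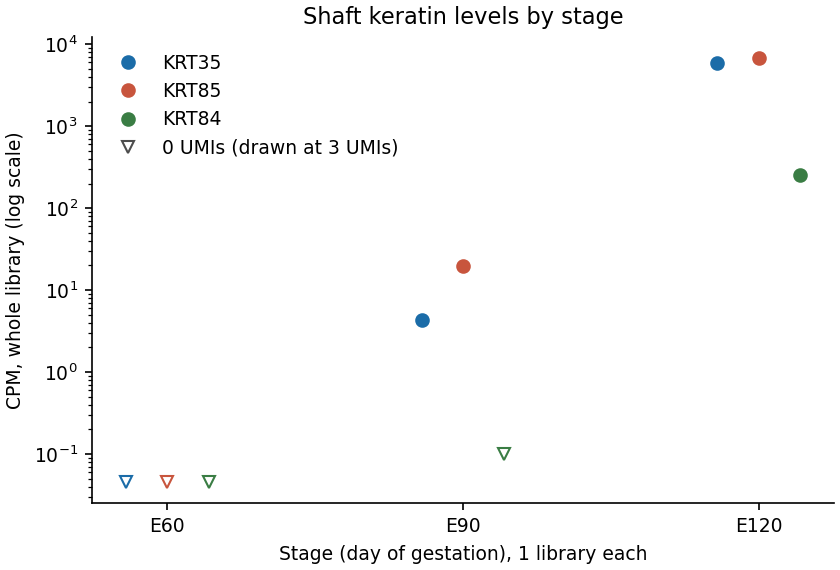
Level of each gene in each whole library, as CPM on a log axis, by stage, with 1 library per stage; bars are exact 95% Poisson intervals and are mostly smaller than the points, and open triangles mark 0 UMIs, drawn at the level of 3 UMIs. KRT35 and KRT85 appear at E90, at 4.33 and 19.7 CPM, and all 3 genes are at 251 CPM or more at E120.

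Between E90 and E120 all 3 genes were at least 1 log2 unit higher on the scale of log2(CPM + 1), which held for 5.25% of the 16739 genes. KRT35 was 1351-fold higher, with a log2 ratio of 10.1 that ranked 5 among all genes. KRT85 was 345-fold higher, with a log2 ratio of 8.36 that ranked 10. KRT84 was at least 2529-fold higher, with a log2 ratio of 7.97 that ranked 12. Between E60 and E90, KRT35 (log2 ratio 2.41, at least 93.8-fold) and KRT85 (log2 ratio 4.37, at least 427-fold) were higher, as were 16.1% of all genes; with a pseudocount of 10 CPM the KRT35 ratio was 0.52, under the 1 log2 unit that counts as higher. Between E60 and E120 all 3 were higher, as were 12.1% of all genes, and KRT85 (log2 ratio 12.73) and KRT35 (12.51) ranked 1 and 2; these comparisons share libraries. Scaling by the median of ratios in place of total UMIs, a shift of 0.48 in log2 CPM between E90 and E120 and of -0.52 between E60 and E90, gave log2 ratios of 10.51 for KRT35, 8.82 for KRT85 and 8.12 for KRT84 from E90 to E120.

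Other genes of the shaft differed in how they compared with the 3 keratins. Of 17 hair keratins listed, 9 were in the table, and of the 6 besides the 3 described here, 3 were at least 1 log2 unit higher at E120 than at E90 (median log2 ratio 1.41, against -0.18 over all genes). These were the type I chains KRT33A, KRT36 and KRT39, at 10.7, 10.8 and 3.43 CPM in E120. KRT82, which neighbours KRT84 in the RefSeq gene order of assembly ARS1.2, had 0.974 CPM, and KRT32, which neighbours KRT35, had 0.46 CPM. Of the hair keratins in the table under their symbols, KRT35, KRT85 and KRT84 were thus the most abundant at E120. All 8 keratins of the inner root sheath, the layer that moulds the shaft, were in the table, and 6 were higher (median log2 ratio 5.44). Of 13 other shaft genes in the table, 10 were higher (median 4.20), among them GPRC5D, a receptor of cortex cells, which went from 0 UMIs at E90 to 518 CPM. Of 15 shaft regulators, 4 were higher and 3 lower (median 0.09), where 16.9% of all genes were lower. HOXC13 was among the 4 and went from 0 UMIs at E60 to 12.4 CPM at E90 and 355 CPM at E120, and the matrix factor MSX1 from 1.65 CPM at E90 to 251 CPM at E120. Of 4 keratin-associated proteins, 2 were higher, KRTAP11-1 at 26.4 CPM and KRTAP3-1 at 7.79 CPM, both with 0 UMIs at E90.

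At E90 most cells with strong KRT85 signal lay in 1 epithelial-like cluster. Clusters were made in each library without keratin and keratin-associated protein genes, so the 3 keratins did not form them. Names given as "-like" were rebuilt from marker lists. A cluster that did not pass the naming rule, given below, has no name and is called by its leading genes. KRT85 was found in 356 of the 6931 E90 cells (5.14%), with at most 13 UMIs in a cell. In a cluster of 267 cells, also led by ZNF750, a factor of epidermal differentiation, and by KRT17, KRT85 was in 26.2% of cells (21.0 to 31.9%), at 192 CPM. In all other E90 cells it was in 4.29% (3.82 to 4.81%), at 11.9 CPM. Of the 49 cells with at least 3 KRT85 UMIs, 35 were in that cluster. In endothelial-, mural- and mast-like cells of E90, which are not known to make hair keratins and serve here as a background, 2.90% of 241 cells had a KRT85 UMI, with a median depth of 3529 UMIs.

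KRT35 was in 108 E90 cells (1.56%), and its level in the 241 background cells, 2.06 CPM (0.249 to 7.44, from 2 UMIs), was not separable from its level in the library at this depth. Within the ZNF750 cluster, KRT35 was in 3.37% of cells (1.55 to 6.30%), and all 9 of these cells also had KRT85. In the whole library 20 cells had both genes. A finer clustering, at Leiden resolution 2 in place of 1, set apart 37 of the E90 cells, with a median depth of 6720 UMIs. In them KRT85 was at 604 CPM (517 to 702) and in 89.2% of cells, and they held 28.9% of all KRT85 UMIs of E90. KRT35 was at 45.7 CPM (24.3 to 78.1) there, from 13 UMIs in 8 cells, against 3.93 CPM in the other E90 cells, and KRT84 was at 0. This high KRT35 level rested on the finer clustering, and the 37 cells held 9.92% of the KRT35 UMIs of E90. At resolution 1 KRT35 was no higher in the ZNF750 cluster (10.7 CPM, 5.83 to 17.9) than in an unnamed cluster of 422 cells led by AK8 and CHGA (10.7 CPM, 6.43 to 16.7), and at resolution 0.5 it was highest, at 11.7 CPM, in a cluster of 827 cells led by CENPF and PRC1. In the same 37 cells, the inner root sheath keratin KRT25 was at 77.3 CPM against 2.57 elsewhere, HOXC13 at 38.6 against 12.1, ZNF750 at 383 against 22.2 and KRT17 at 14216 against 3229, while MSX1 had 0 UMIs.

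At E120 KRT35 was in 95.6% of cells, KRT85 in 95.1% and KRT84 in 28.4%, but most of these cells were at a background level. In the 554 endothelial-, mural-, myeloid- and mast-like cells of E120 (median depth 5805 UMIs, against 13764 in the other cells), KRT35 was in 89.9% of cells, KRT85 in 92.2% and KRT84 in 11.4%. Their levels there were 1141, 812 and 35.4 CPM, against 6052, 7057 and 260 CPM in the other 6342 cells. After random thinning of every cell to 2000 UMIs (all cells were deep enough), 67.4%, 63.7% and 12.1% of E120 cells had a UMI of KRT35, KRT85 and KRT84, against 57.9%, 60.3% and 2.71% of the background cells. The shares of cells with a KRT35 or KRT85 UMI therefore say little about which cells make them. A cell was called positive when its thinned count lay above the 95th percentile of the background cells, which was more than 4 UMIs for KRT35 and KRT85 and at least 1 UMI for KRT84. By this rule 34.8% of cells (33.7 to 36.0%) were positive for KRT35, 29.0% (27.9 to 30.1%) for KRT85 and 12.1% (11.3 to 12.9%) for KRT84, and 4.15%, 2.89% and 2.71% of background cells were. Median thinned counts of positive cells were 23 for KRT35, 21 for KRT85 and 1 for KRT84, and the highest counts were 122, 206 and 32 of 2000 UMIs.

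KRT35 and KRT84 had their highest level in the same E120 cluster, and KRT85 in another. KRT35 was highest in a hair shaft-like cluster of 208 cells led by KRT84, SELENBP1 and CYP26B1, at 20066 CPM (19926 to 20206). Next came an unnamed cluster of 1073 cells led by HS3ST2, ALOX15B and DAPL1, at 17267 CPM (17206 to 17328), which held 56.2% of all KRT35 UMIs. KRT85 was highest in a hair shaft-like cluster of 45 cells led by GPRC5D, KRTAP11-1 and KRT33A, at 46368 CPM (45981 to 46757), and in one of 306 cells led by EFHD1, LAP3 and DSG4, at 39661 CPM (39513 to 39809). The desmosomal cadherin DSG4 and the keratin-associated protein KRTAP11-1 are known from the shaft. The EFHD1 cluster held 43.8% and the HS3ST2 cluster 35.2% of all KRT85 UMIs. KRT84 was highest in the SELENBP1 cluster, at 3676 CPM (3616 to 3736), which held 62.0% of its UMIs, and the HS3ST2 cluster held another 23.7% at 312 CPM (304 to 321).

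The order of the keratins thus turned around between shaft clusters. In the SELENBP1 cluster KRT85 was at 5819 CPM, below KRT35, and 100% of cells were positive for KRT35, 80.3% for KRT85 and 81.7% for KRT84. In the HS3ST2 cluster KRT85 was at 12581 CPM, and 99.2%, 94.4% and 29.3% of cells were positive. In the EFHD1 cluster KRT35 was at 7706 CPM and KRT84 at 67.0 CPM, and 69.9%, 100% and 7.84% were positive. In the GPRC5D cluster KRT35 was at 759 CPM and KRT84 at 131 CPM, and 4.44%, 100% and 8.89% were positive. KRT35 was at 1141 CPM in the background cells, but their median depth was only 5805 UMIs. The lower CPM thus does not show that KRT35 was absent from the GPRC5D cluster. There 100% of cells had a KRT35 UMI as deposited, as did 89.9% of the less deep background cells, so this share does not show its presence either. KRT85 was the only one of the 3 above the thinned threshold in nearly all cells of the GPRC5D cluster. Median depths of these 4 clusters were 18224.5, 17033, 25270.5 and 27984 UMIs, in the order named. The clusters with the 2 highest levels held 70.7% of KRT35, 52.4% of KRT85 and 63.0% of KRT84 UMIs; with finer clusters (resolution 2) the share of KRT35 was 30.1%, and with coarser ones (0.5) that of KRT85 was 87.9%. At resolution 2 KRT35 was highest in another cluster, of 237 cells led by HS3ST2 and DAPL1 (20978 CPM), and at 0.5 again in the one led by KRT84 and SELENBP1 (19427 CPM). KRT84 was highest in a cluster led by KRT84 and SELENBP1 in both settings, of 208 and 224 cells.

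**Figure D2:**
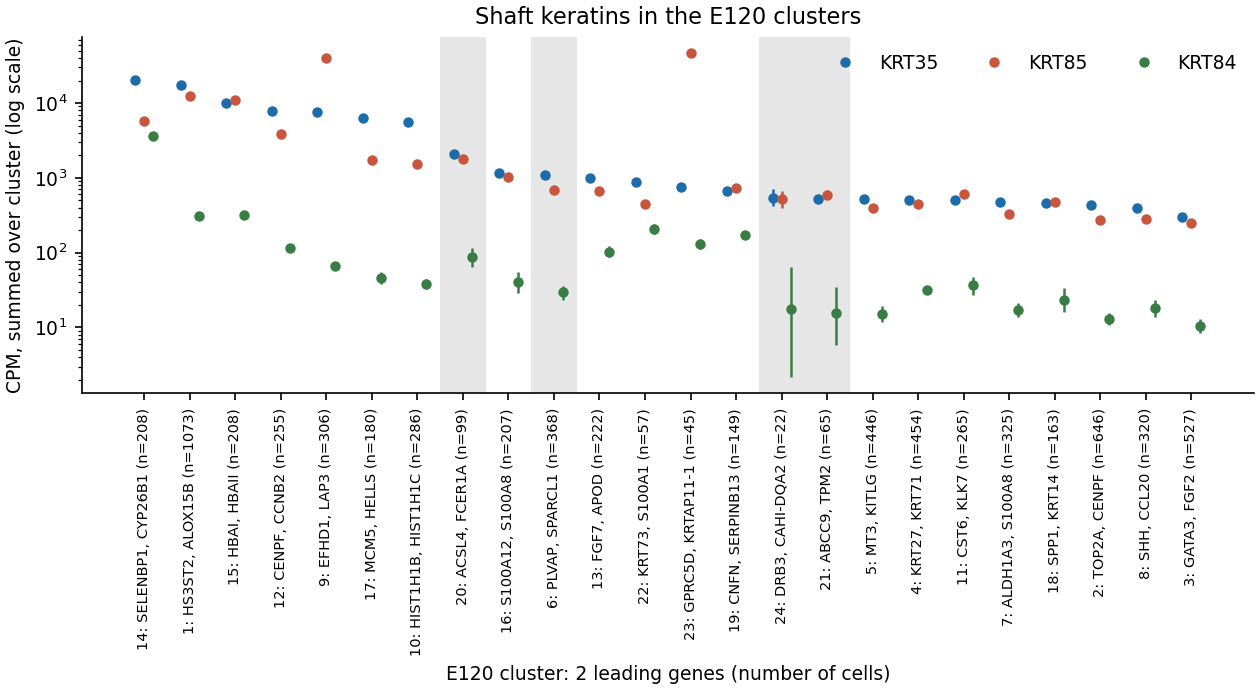
Level of KRT35, KRT85 and KRT84 in each of the 24 E120 clusters, as CPM summed over the cluster on a log axis, ordered by KRT35; bars are exact 95% Poisson intervals, and grey marks the endothelial-, mural-, myeloid- and mast-like clusters used as background. KRT84 stands out in the SELENBP1 cluster at 3676 CPM, and KRT85 in the EFHD1 and GPRC5D clusters at 39661 and 46368 CPM.

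Dividing cells had KRT35 ahead of KRT85. In 3 clusters of E120 led by cell cycle genes, KRT35 was at 5554 CPM (286 cells, led by histone genes such as HIST1H1B), 6315 CPM (180 cells, led by the replication genes MCM5 and HELLS) and 7849 CPM (255 cells, led by the mitosis genes CENPF and CCNB2). KRT85 in the same clusters was at 1518, 1747 and 3874 CPM, and KRT84 at 38.0, 46.1 and 115 CPM. KRT35-positive cells made up 80.8%, 90.0% and 78.8% of them, and KRT85-positive cells 18.5%, 23.9% and 38.0%. Another dividing cluster, of 646 cells led by TOP2A and CENPF, had KRT35 at 436 CPM and KRT85 at 275 CPM, with 3.10% and 1.70% of cells positive, so keratin signal was not shared by all dividing cells. An inner root sheath-like cluster of 454 cells, led by KRT27 and KRT71, had KRT35 at 511, KRT85 at 453 and KRT84 at 31.3 CPM. KRT35 and KRT85 were thus at a lower CPM than in the background cells. Its median depth was 17684.5 UMIs, against 5805 in the background cells, so the lower CPM does not show absence.

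The mast-like cluster of 99 cells had KRT35 at 2062 and KRT85 at 1768 CPM, above the other background clusters. Without it the thresholds of KRT35 and KRT85 were 3 UMIs in place of 4; 89.2% of KRT85-positive cells were then KRT35-positive and 76.4% of KRT35-positive cells KRT85-positive, and 78.7% and 74.1% of KRT84-positive cells were positive for KRT35 and KRT85. An unnamed cluster of 208 cells led by the haemoglobin genes HBAI and HBAII had KRT35 at 10126, KRT85 at 11093 and KRT84 at 318 CPM, with a median depth of 3189 UMIs. DAPL1 at 2659 and HOXC13 at 567 CPM were near their levels in the HS3ST2 cluster (3028 and 603 CPM), and 80.3% and 82.7% of its cells were positive for KRT35 and KRT85. It was left out of the ordering of cells. It held 6.96%, 8.6% and 7.55% of the cells positive for KRT35, KRT85 and KRT84, and the shares of cells with a partner keratin were not tested without it. A papilla-like cluster of 222 cells had 103 CPM of KRT84, with 6.31% of cells positive; these were 154 UMIs, the upper quartile of its thinned counts was 0, and 1 cell had 17 of 2000.

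KRT35 and KRT85 were mostly found in the same E120 cells. Of 2001 KRT85-positive cells, 89.9% (88.4 to 91.1%) were also KRT35-positive, against 12.3% of the 4895 other cells. Of 2401 KRT35-positive cells, 74.9% (73.1 to 76.6%) were KRT85-positive, against 4.52% of the 4495 other cells. KRT84-positive cells were KRT35-positive in 77.8% (74.8 to 80.6%) and KRT85-positive in 71.3% (68.1 to 74.4%) of 834 cells. Seen from the other side, only 27.0% of KRT35-positive and 29.7% of KRT85-positive cells were KRT84-positive. KRT85 without KRT35 was thus rarer than KRT35 without KRT85 at these thresholds. With thresholds at the 99th percentile of the background, 70.3% of KRT85-positive and 71.4% of KRT35-positive cells had the partner. The difference between the shares was then no longer seen. After thinning, KRT84 was found in a minority of the cells with the pair, but finding it depended on depth. As deposited, KRT84 was in 64.1% of cells of the HS3ST2 cluster, where 29.3% were positive after thinning. It was in 91.3% of the SELENBP1 and 37.6% of the EFHD1 cluster as deposited, and in 11.4% of the background cells, which were less deep. How many cells with the pair made KRT84 was not tested.

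Cells positive for KRT35 and KRT85 but not KRT84 numbered 1216 (17.6% of the E120 cells), and cells with all 3 numbered 582 (8.44%). Another 536 cells (7.77%) had KRT35 alone and 190 (2.76%) KRT85 alone. The 4 genes of the cell division list that were in the table (TOP2A, CDK1, CENPF and NUSAP1) summed to 1074 CPM in cells with KRT35 alone, 183 CPM in cells with KRT35 and KRT85, 105 CPM in cells with all 3 and 63.3 CPM in cells with KRT85 alone. Cell division genes were therefore at their highest level where KRT35 stood alone. Of the 536 KRT35-only cells, 174, 115 and 92 were in the histone, MCM5 and CCNB2 clusters. Of the 190 KRT85-only cells, 86 were in the EFHD1 and 40 in the GPRC5D cluster. Of the 582 cells with all 3, 309 were in the HS3ST2 and 149 in the SELENBP1 cluster. Median depths of the 4 classes, from KRT35 alone to KRT85 alone, were 14601.5, 17386.5, 17449 and 18618 UMIs. Among the 172 cells with KRT84 alone, 10 were background cells and the median depth was 6560.5 UMIs. Those with 1 thinned UMI could not be told from background, where the highest KRT84 count was 3. An unnamed cluster of 149 cells led by CNFN held cells with 5 and 6 thinned KRT84 UMIs and 0 of KRT35 and KRT85. KRT84 was at 172 CPM (157 to 188) there and at 206 CPM (178 to 238) in an inner root sheath-like cluster of 57 cells led by KRT73. In the background cells KRT84 was at 35.4 CPM. Few cells held these UMIs: 10.1% of the CNFN and 5.26% of the KRT73 cluster were KRT84-positive. The upper quartile of thinned KRT84 counts was 0 in both clusters.

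Other shaft genes separated the same classes. MSX1 was at 451 CPM in cells with KRT35 alone, 206 CPM with KRT35 and KRT85, and 60.1 CPM with KRT85 alone. HOXC13 was at 463, 577 and 361 CPM in the same order, and LEF1, a Wnt pathway factor of the matrix and precortex, at 253, 314 and 154 CPM. In cells with all 3 keratins MSX1 was at 116, HOXC13 at 650 and LEF1 at 253 CPM. HOXC13 was thus highest in cells with all 3, LEF1 in cells with KRT35 and KRT85 only, and MSX1 in cells with KRT35 alone. GPRC5D was at 30.8, 271 and 11078 CPM, the 4 keratin-associated proteins together at 2.18, 18.4 and 712 CPM, and KRT33A at 0.257, 4.35 and 228 CPM. These genes were thus highest in cells with KRT85 alone. Not all shaft genes were: DAPL1 was at 515, 2849 and 1515 CPM and SELENBP1 at 371, 389 and 17.5 CPM in the same order.

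**Figure D3:**
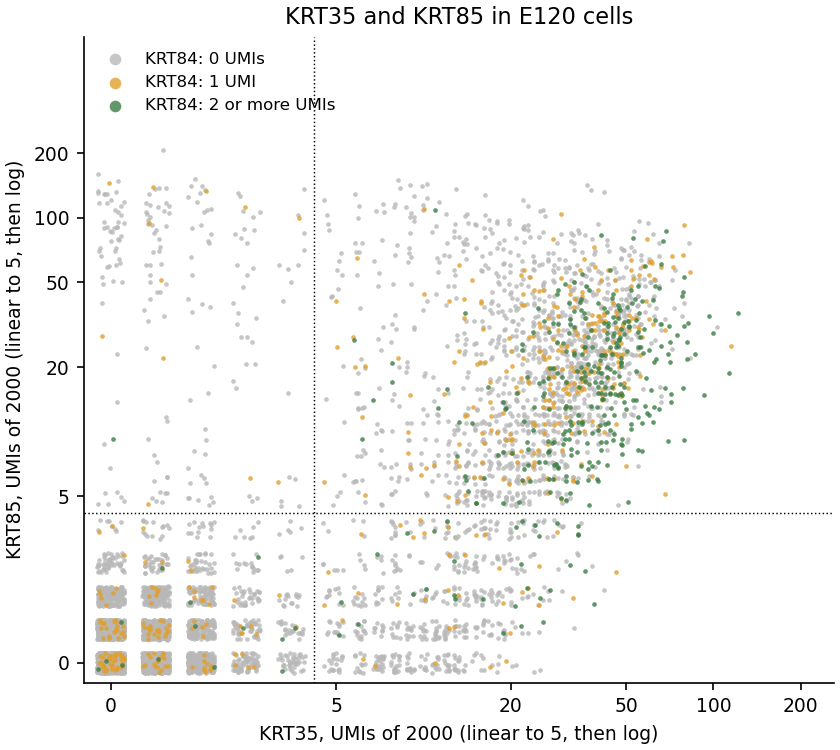
Each point is an E120 cell thinned to 2000 UMIs, with its KRT35 count on the horizontal and its KRT85 count on the vertical axis (linear to 5, then log, points spread by up to 0.3), coloured by its KRT84 count; dotted lines are the thresholds for positive cells, which lie above 4 UMIs. The 1798 cells in the upper right are positive for both, and cells with 2 or more KRT84 UMIs gather at high KRT35.

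KRT35 was highest in cells with intermediate KRT85. Cells were grouped by thinned KRT85 count, and the thinned KRT35 count of each group is given as median and quartiles. It was 1 (0 to 2) at 0 to 4 KRT85 UMIs, 19 (13 to 27) at 5 to 9, 29 (21 to 37) at 10 to 19, 35 (24 to 46) at 20 to 39, 28 (13 to 45) at 40 to 79 and 5.5 (1 to 16) at 80 to 206. The share of KRT35-positive cells went from 98.3% at 10 to 19 KRT85 UMIs to 52.4% (44.6 to 60.1%) in the last group, which held 170 cells. KRT85 itself took up at most 206 of the 2000 UMIs. KRT84 had its highest level at 10 to 19 KRT85 UMIs, at 940 CPM (918 to 962), and 64.7 CPM (57.1 to 73.0) in the last group. Cell division genes summed to 709, 449, 207, 53.3, 19.3 and 21.2 CPM from the first to the last group, and GPRC5D went from 32.0 to 7138 CPM. The group with the most KRT85 was thus low in KRT35, KRT84 and cell division genes and high in GPRC5D, while cells with 40 to 79 KRT85 UMIs still had KRT35 at 13781 CPM, and 86.0% of them were KRT35-positive.

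**Figure D4:**
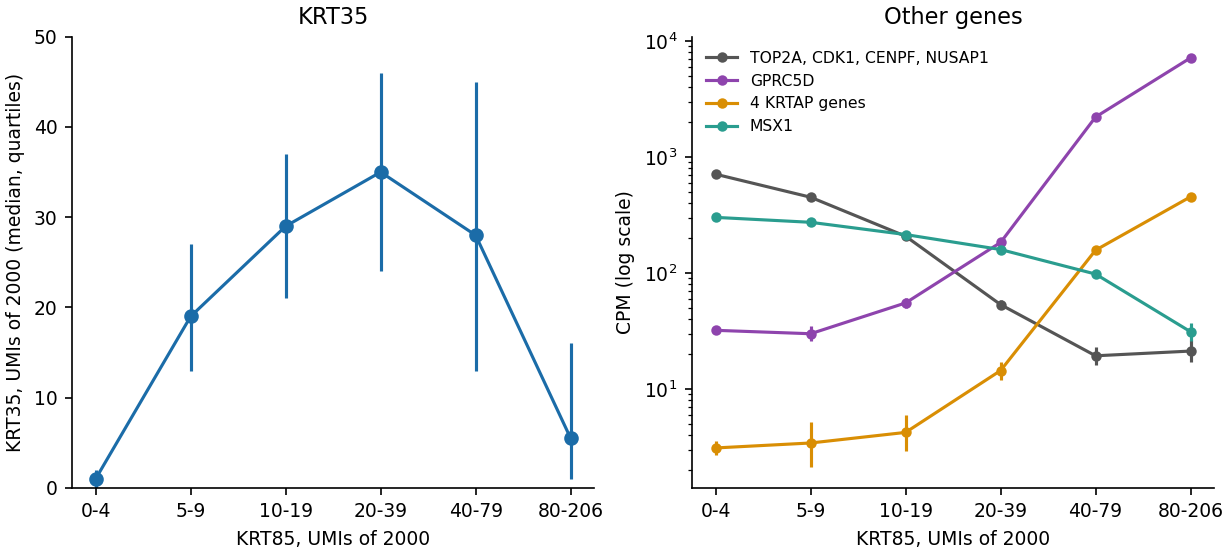
E120 cells grouped by KRT85 count among 2000 UMIs; on the left the KRT35 count of each group (median, bars for quartiles), on the right the level of other genes as CPM on a log axis (bars for exact 95% Poisson intervals). KRT35 has its highest median, 35, at 20 to 39 KRT85 UMIs and 5.5 in the last group, while GPRC5D reaches 7138 CPM.

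KRT35 was higher in each group of cells with more KRT84, whereas KRT85 was highest at 2 to 4 KRT84 UMIs. Across groups of 0, 1, 2 to 4, 5 to 9 and 10 to 32 KRT84 UMIs (6062, 479, 192, 101 and 62 cells), KRT35 was at 4266, 12237, 16723, 19354 and 27135 CPM. KRT85 was at 6263, 10890, 11368, 7406 and 8396 CPM. Positive for KRT35 were 28.9%, 64.5%, 93.8%, 97.0% and 100% of cells, and for KRT85 23.2%, 59.7%, 82.8%, 90.1% and 95.2%. With 2 or more KRT84 UMIs, where only 2 background cells lay, most cells were positive for both other keratins. SELENBP1, a selenium-binding protein known from the shaft, was at 143 CPM in the first and 1826 CPM in the last group, and HOXC13 at 320 and 815 CPM. GPRC5D, in contrast, was at 554 and 34.6 CPM, MSX1 at 269 and 18.9 CPM, and cell division genes at 554 and 14.2 CPM. LEF1 was at 181, 257, 254, 151 and 87.3 CPM from the first to the last group. It was thus higher at 1 and at 2 to 4 KRT84 UMIs than at 0, and lower from 5 KRT84 UMIs on. The genes KRT82, S100A3 and KRT32 were rare, with 43, 27 and 13 UMIs in the SELENBP1 cluster. In the 62 cells with the most KRT84 they reached 32.3, 18.9 and 9.44 CPM. In cells without KRT84 they were at 0.421, 0.0867 and 0.334 CPM. Not all rare hair keratins were higher where KRT84 was high. In the SELENBP1 cluster KRT39 and KRT40 were at 1.27 and 0.253 CPM, from 5 and 1 UMIs, against 3.43 and 0.835 CPM in the whole library. They were not compared by KRT84 group. KRT82 was at 10.9 CPM in the SELENBP1 cluster and at 10.3 CPM in an unnamed cluster of 149 cells led by CNFN.

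**Figure D5:**
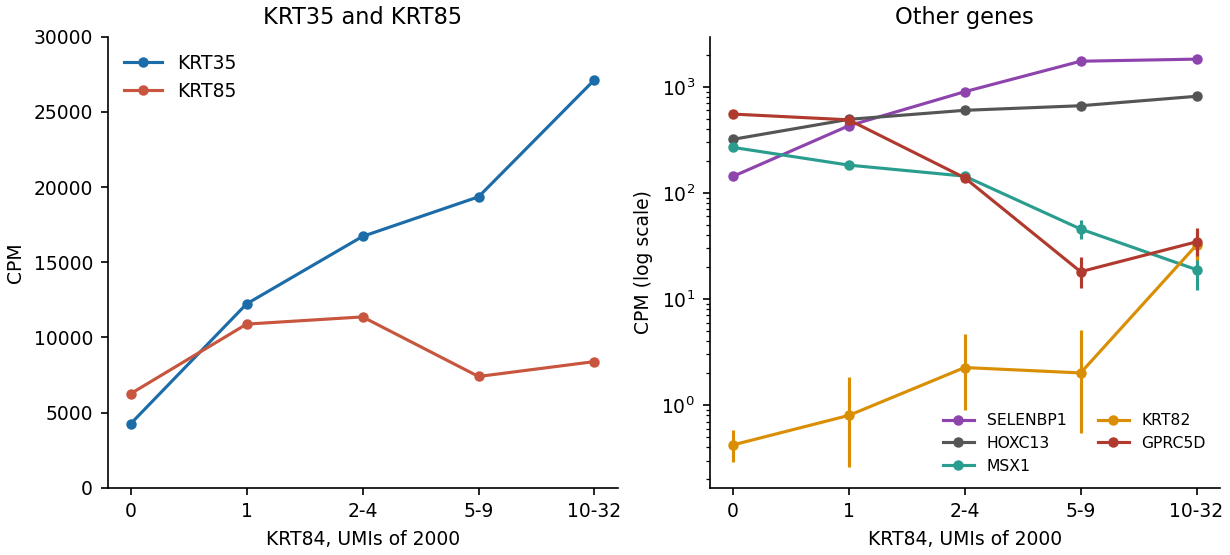
E120 cells grouped by KRT84 count among 2000 UMIs; on the left the level of KRT35 and KRT85 as CPM, on the right that of other genes as CPM on a log axis (bars for exact 95% Poisson intervals). KRT35 is at 27135 CPM in the group with the most KRT84, where KRT85 is at 8396 CPM and KRT82 at 32.3 CPM.

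The balance of the pair varied widely from cell to cell. Among 1994 cells with at least 20 thinned UMIs of KRT35 and KRT85 together, KRT35 made up a median of 60.5% of the sum, with quartiles of 41.2 and 73.2% and 5th and 95th percentiles of 2.33 and 86.5%. Of these cells, 188 had under 10% KRT35 and 63 had over 90%. The KRT35 share was 65.3% (quartiles 53.8 and 75.9%) in 607 KRT84-positive cells and 57.7% (32.5 and 71.2%) in the 1387 others, and the quartile ranges overlapped.

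With cells ordered by other shaft genes, KRT35 came up earlier in the order than KRT85. The 5912 cells of 18 epithelial clusters of E120 were ranked by the summed level of 23 hair shaft genes without the 3 keratins and divided into 10 bins of equal size. This is an order of cells in 1 library, not of time. Of the 23 genes, DAPL1, FABP9 and GPRC5D had the highest levels in the E120 library (1091, 748 and 518 CPM), so they weighed most in the sum. DAPL1 is also among the genes most like KRT35 and KRT85, listed below. GPRC5D was at 82.9 CPM in bin 9 and 3439 CPM in bin 10, and it led the cluster with the highest KRT85 level. The order is thus not independent of the 3 keratins. From bin 1 to bin 10 KRT35 was at 424, 570, 811, 1176, 1689, 3451, 6572, 12238, 15339 and 9246 CPM. KRT85 was at 255, 245, 410, 390, 500, 1213, 3026, 7544, 15343 and 24839 CPM. KRT84 was at 10.8, 12.3, 27.1, 31.7, 47.4, 30.5, 137, 523, 736 and 533 CPM. KRT35 and KRT84 were thus highest in bin 9 and lower in bin 10, where KRT85 was highest. KRT35 first reached 10% of its highest bin in bin 5, and KRT85 and KRT84 in bin 7. For 50% the bins were 8 for KRT35, 9 for KRT85 and 8 for KRT84.

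Median depth in the bins went from 12387 to 22343 UMIs, and its part in the order was not tested. Inner root sheath keratins summed to 29926 CPM in bin 10. Without the inner root sheath-like clusters, an alternative added after this was seen, 4874 cells remained, and KRT35 was highest in bin 9 (17021 CPM, 12244 in bin 10), KRT85 in bin 10 (32009 CPM) and KRT84 in bin 9 (807 CPM, 687 in bin 10). Cell division genes went from 991 CPM in bin 1 to 834 in bin 6, 193 in bin 8 and 14.4 in bin 10. An order by keratin-associated proteins alone could not be read, since 93.0% of the 5912 cells had none of their UMIs.

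KRT35 and KRT85 were among the 5 genes most like each other over E120 cells. Over the 6896 cells, which share a library and differ in depth, log values of KRT35 and KRT85 had a Pearson correlation of 0.76, KRT35 and KRT84 of 0.50, and KRT85 and KRT84 of 0.41. With cells thinned to 2000 UMIs these were 0.69, 0.37 and 0.31. Among 10266 genes found in at least 1% of the cells, the closest to KRT35 were MGST3 (0.79), KRT85, HS3ST2 (0.75), SELENBP1 (0.75) and DAPL1 (0.70). The closest to KRT85 were MGST3 (0.78), ALOX15B (0.77), DAPL1 (0.77), KRT35 and HEPHL1 (0.67). For KRT84 they were SELENBP1 (0.58), KRT35, 2 genes known only by Ensembl identifiers (0.49 and 0.46) and HS3ST2 (0.43). MGST3, a microsomal glutathione transferase, headed the lists of KRT35 and KRT85, and KRT84 shared SELENBP1 and HS3ST2 with KRT35.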

How the data were processed

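The deposited table held natural log values: in each cell the authors' values were the natural log of 1 plus UMIs scaled to a total of 10000, as the values themselves showed. Cell Ranger 3.0.2 was used, per the submitters' processing notes; the genome build, annotation and filters are not given in the sources used here. The table held 20676 cells, 971 more than the 19705 stated. All nonzero values were whole multiples of the smallest in their cell (100%, tolerance 0.01), so UMI counts were recovered on the assumption that this value is 1 UMI; the planned analysis had assumed counts or values that give them.

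Counts were summed over a library, cluster or class of cells and scaled to CPM. Stage ratios used log2(CPM + 1), later over earlier, and folds against 0 counts used a floor of 3 counts in the sum. Each library was clustered without keratin and keratin-associated protein genes (2000 variable genes, 30 principal components, 20 neighbours, Leiden resolution 1). A cluster was named from at least 3 markers found in at least 10% of its cells and at 2 times the median over clusters. At least 1 marker of that list also had to be among the 10 leading genes of the cluster. No list of an unrelated cell type could have more markers there. Clusters best matched by erythroid markers were left unnamed. By this rule 10 E120 clusters stayed unnamed. No cell was removed as a doublet; an alternative left out the 6% with the highest scores. Thinning drew 2000 UMIs per cell at random. The text names the 3 keratins, for each the 5 genes with the highest Pearson correlation over E120 cells, genes of the lists (hair keratins, inner root sheath keratins, keratin-associated proteins, shaft regulators, other shaft genes, cell division) with at least 100 CPM at E120, and genes that lead clusters; list genes under 100 CPM and those of the E90 clusters were named after their values were seen. Members and lists were chosen with earlier results of these data known. The scripts were tested on simulated data. Python 3.11.15, numpy 2.4.6, scipy 1.17.1, scikit-learn 1.9.0, leidenalg 0.10.2 and igraph 0.11.9 were used.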

Additional observations from a re-analysis of the deposited data

How the results depend on the processing

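No paired analysis was possible because each stage was 1 library, and with 1 library per stage no value can be set against the spread between fetuses. No ratio between stages changed sign under an alternative, but with a pseudocount of 0.1 CPM the KRT84 ratio passed that of KRT35 from E90 to E120, and with 10 CPM the KRT35 ratio from E60 to E90 fell under 1. At the 99th percentile the shares of KRT85-positive and KRT35-positive cells with the partner were 70.3% and 71.4%, so the reported difference between them was no longer seen. The log2 ratio from E90 to E120 was, for KRT35, KRT85 and KRT84, 9.87, 8.03 and 7.56 with each cell weighed the same, 10.51, 8.82 and 8.12 with the median of ratios and 8.68, 7.84 and 4.70 with a pseudocount of 10 CPM. With 0.1 CPM it was 10.37 for KRT35 and 11.29 for KRT84, and with only cells of 1000 genes or more and 10% mitochondrial counts or fewer 10.72 for KRT35. From E60 to E90 it was 5.47 for KRT35 and 7.63 for KRT85 with 0.1 CPM, 0.52 and 1.57 with 10 CPM, 1.80 for KRT35 in the filtered cells and 4.06 for KRT85 with the median of ratios. Thinned to 1000 UMIs, 54.9%, 50.3% and 8.05% of E120 cells had a UMI of KRT35, KRT85 and KRT84, against 95.6%, 95.1% and 28.4% as deposited.

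The share of KRT85-positive cells that were KRT35-positive was 70.3% with thresholds at the 99th percentile, 78.7% with 1 UMI, 80.2% with 2 UMIs, 91.2% with cells thinned to 5000 UMIs (1320 cells left out) and 88.3% in another random draw. The reverse share was 71.4% at the 99th percentile, 81.1% at 5000 UMIs, 78.7% in the other draw, 76.8% without the cells of highest doublet score and 62.6% with a threshold at 10% of the level in the top 5% of cells. Of KRT84-positive cells, 84.8% (99th percentile), 90.5% (1 UMI), 98.0% (2 UMIs) and 95.3% (5000 UMIs) were KRT35-positive. For KRT85 these were 60.6%, 89.8%, 95.5% and 92.7%, with 75.8% in the other draw, 75% in the filtered cells and 60.2% with the 10% threshold.

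The share of cells in bins before the first with 50% of the highest level was 70.0% for KRT35, 80% for KRT85 and 70.0% for KRT84. Ordered by keratin-associated proteins it was 0, 90.0% and 0%, which rests on tied cells. Without the inner root sheath-like clusters it was 60.0% for KRT35, and without FABP9 in the order 90.0% for KRT85 and 80% for KRT84. The share of UMIs in the 2 highest clusters was 71.6%, 87.9% and 85.9% for KRT35, KRT85 and KRT84 at resolution 0.5, 30.1%, 51.9% and 71.7% at resolution 2, and 69.3% and 53.0% for KRT35 and KRT85 when clustered with keratin genes. The highest E90 cluster was at 604 CPM for KRT85 and 45.7 CPM for KRT35 at resolution 2, against 192 and 10.7. Of the 5 genes most like it, KRT85 kept 3 with thinned cells and KRT84 kept 3 with Spearman's correlation.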
